A study of Mus musculus with 4 samples.

Results

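Genes linked to type 1 diabetes and to innate immune sensing were examined for differences in active histone marks between embryonic stem (ES) cells of NOD and C57BL/6 (B6) mice. The set held 42 of the 21787 protein-coding genes of the annotation and fell into 25 diabetes candidate genes, 5 islet antigens and 12 genes of innate sensing and signalling. H3K27ac regions were assigned to a gene when the deposited annotation named it, at any distance. H3K4me3 regions were assigned when they overlapped the gene body or lay within 5 kb of a transcription start site (TSS) of the gene. By this rule the 42 genes held 43 of the 31315 listed regions, 22 of H3K4me3 and 21 of H3K27ac.

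The cells came from embryos of the NOD (non-obese diabetic) strain, which develops autoimmune diabetes spontaneously, and of the B6 strain, which does not. Both were cultured with 2i, a pair of kinase inhibitors that keeps mouse ES cells in a naive state. Chromatin was precipitated with an antibody against H3K4me3 or H3K27ac, and each strain and mark was represented by 1 library, so 4 libraries were compared without replicates. The study characterised mainly male NOD lines and grew its ES cells without feeder cells, but the labels do not say which line or passage each library came from. The strain, the line and the library therefore cannot be told apart. Each deposited list holds only regions called as enriched in a strain against the other, so a gene missing from a list may still carry the mark at a similar level in both strains.

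The H3K4me3 libraries held 22750449 tags (mapped reads kept for counting) in NOD and 14791364 in B6, whereas no depth is known for the H3K27ac libraries. Of 8 ES cell markers, 5 had a NOD-enriched and 3 a B6-enriched H3K4me3 region, beside 24.4% and 16.4% of all genes, and Esrrb and Tfcp2l1 were in both lists. For H3K27ac the numbers were again 5 and 3, beside 18.9% and 17.2%. Of 6 blood cell markers, Itgam had a NOD-enriched and Lyz2 a B6-enriched H3K4me3 region, and none had an H3K27ac region. Of 8 fibroblast markers, 1 had a NOD-enriched and 2 a B6-enriched H3K4me3 region, and 3 had a NOD-enriched and 2 a B6-enriched H3K27ac region. Of 6 islet cell markers, 2 had a NOD-enriched and 1 a B6-enriched H3K4me3 region, and 1 had a NOD-enriched H3K27ac region. The lists show differences at these markers and not their levels, so the labelled cell type could not be checked further, and the part of other cells in the results below was not tested.

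H3K4me3 is laid down around the start sites of genes that are active or poised, and H3K27ac marks active promoters and enhancers. In type 1 diabetes, T cells that escape tolerance attack the insulin-producing beta cells of the pancreatic islets, and inherited risk acts largely through genes of T cell signalling, antigen presentation and cytokine response. Toll-like receptors, inflammasome proteins and interferon regulatory factors sense microbial products and shape that response. Most of these genes work in lymphocytes, myeloid cells or beta cells rather than in ES cells.

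Of the 42 genes, 24 (57.1%) had at least 1 region in any list, beside 50.6% of all protein-coding genes, and 18 had none. NOD-enriched H3K4me3 regions were found at 5 genes (11.9%), whereas the same rule found one at 24.4% of all protein-coding genes. B6-enriched H3K4me3 regions were found at 10 genes (23.8%), beside 16.4% of all genes. By this rule the share of the set lay below that of all genes for the NOD list and above it for the B6 list, on 5 and 10 genes. NOD-enriched H3K27ac regions were named for 10 genes (23.8%, beside 18.9% of all genes), and B6-enriched ones for 8 genes (19.0%, beside 17.2%). Both H3K27ac shares were close to the background. For either mark, a difference of a few genes in a set of 42 is not a result about the set. Only NOD-enriched regions were present at 8 genes (19.0%, beside 21.8% of all genes), only B6-enriched regions at 10 (23.8%, beside 15%), and both kinds at 6 (14.3%, beside 13.9%).

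**Figure D1:**
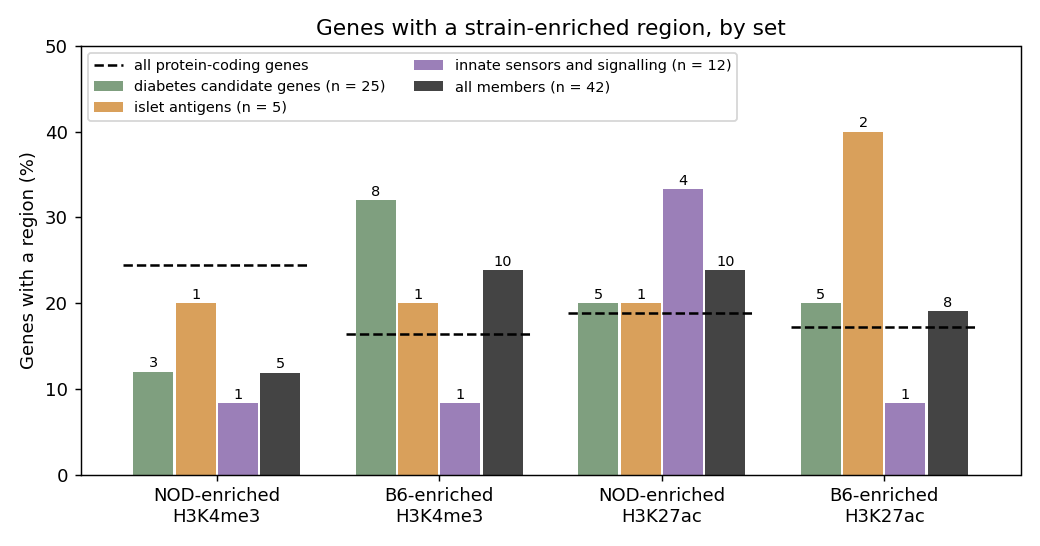
Share of genes with a strain-enriched region (y axis, percent) in each of the 4 lists, for the 3 groups and for all 42 genes, with the number of genes above each bar and the share of all 21787 protein-coding genes as a dashed line. For all 42 genes the bar lies below the line in the NOD H3K4me3 list and above it in the B6 H3K4me3 list, and close to it in both H3K27ac lists.

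Long genes had an H3K4me3 region more often, both among the members and among all genes, and the rule takes in the whole gene body. The members were of similar length to other genes, with a median of 16.6 kb beside 17.2 kb. Among genes over 50 kb, 2 of 10 members and 45.3% of 4935 genes had a NOD-enriched H3K4me3 region, and 6 of 10 members and 34.5% of genes a B6-enriched one. Among genes of up to 50 kb the numbers were 3 of 32 members beside 18.2% of genes for NOD, and 4 of 32 members beside 11.2% for B6. The split by length was chosen after the values were seen. With only the 5 kb around start sites counted, 2 members were left in the NOD list, beside 16.2% of all genes, and 2 in the B6 list, beside 9.23%. Hence most H3K4me3 regions of the set lay inside genes and away from their start sites. With this narrower rule the share of the set lay below that of all genes in both lists. The B6 direction thus depended on counting gene bodies. None of the 22 regions covered a TSS of its gene, 18 were centred in an intron, and 13 had exactly the 500 bp of a single call. In 8 of the 22 the other strain had no tag. The shares of all listed regions with these features were not counted, so the numbers describe the 22 regions and do not set the genes apart.

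The H3K4me3 regions had been chosen by the authors for at least 4-fold more tags in a strain than in the other, so the tag ratios below describe the regions and are not a test. They were scaled by the library totals, and their 95% intervals cover counting error only. Where a strain had no tag, the ratio was taken against a floor of 3 tags in that library and is written as at least that value, followed by the lower limit of the exact 95% interval, which is smaller. NOD-enriched regions of the set held between 20 and 69 NOD tags, with a median of 33, beside a median of 30 over all NOD-enriched regions. B6-enriched regions held between 12 and 129 B6 tags, with a median of 20, the same as over the whole B6 list.

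**Figure D2:**
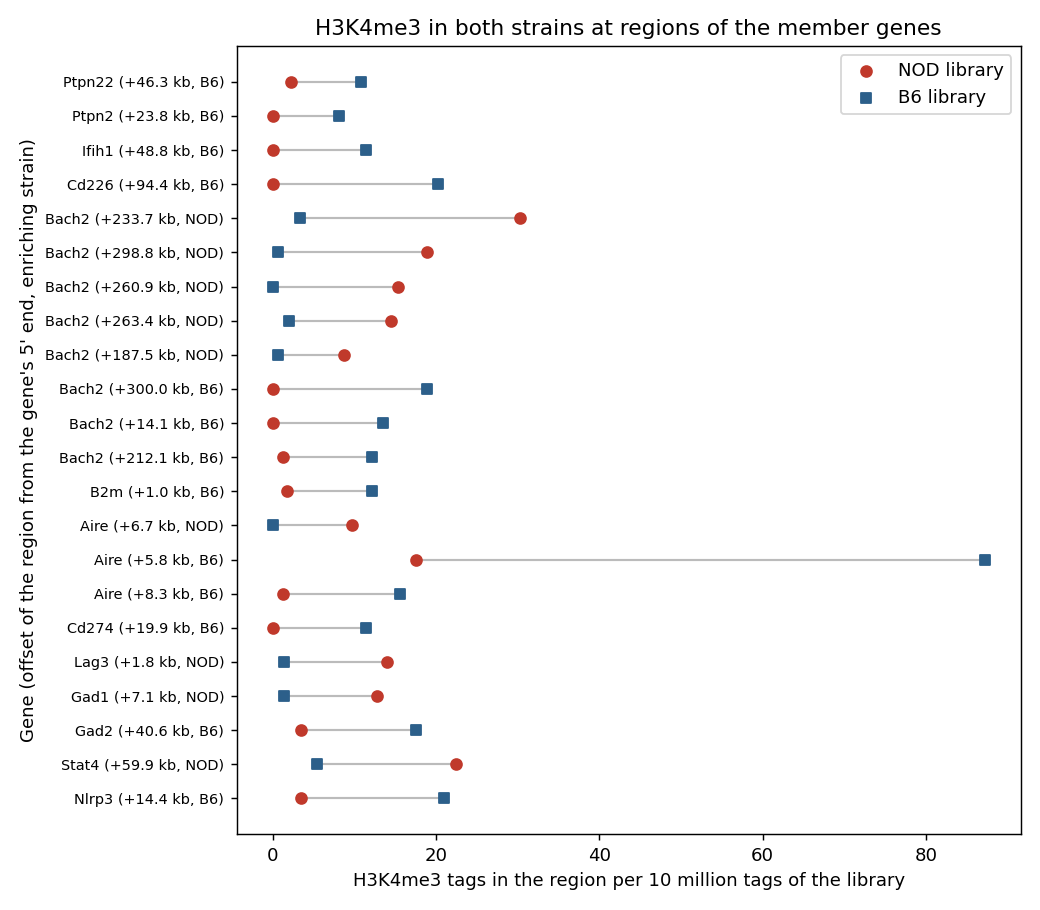
H3K4me3 tags per 10000000 tags of the library (x axis) in the NOD library (circles) and the B6 library (squares) for the 22 H3K4me3 regions of the set, labelled by gene, offset from the 5' end of the gene and enriching strain. The B6-enriched region of Aire stands far to the right at 87.2, and every other region lies at or below 30.3 in both libraries.

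Antigen presentation and central tolerance were represented by B2m and Aire. B2m encodes beta-2-microglobulin, the invariant chain that MHC class I molecules need to reach the cell surface. Its B6-enriched H3K4me3 region (chr2:122148397-122148897, intron) held 4 NOD and 18 B6 tags, a B6 to NOD ratio of 6.92 (95% interval 2.28 to 28.1). The centre of this region lay 0.96 kb after the TSS, the only one of the 22 within 1 kb of a start site of its gene. Neither H3K27ac list named B2m.

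Aire, which drives the display of tissue antigens in the thymus, carried regions of both strains within its introns. The B6-enriched region chr10:78037233-78038373 held 40 NOD and 129 B6 tags, 17.6 and 87.2 per 10000000 tags, a ratio of 4.96 (3.45 to 7.26). It had the most tags of any region in the set and ranked 80 of 7587 in the B6 list. A further B6-enriched region (chr10:78035023-78035523) held 3 NOD and 23 B6 tags, a ratio of 11.8 (3.56 to 61.3). Between them, 22 NOD tags and no B6 tag lay in chr10:78036649-78037149, at least 4.77-fold higher in NOD against the floor (lower limit 3.56). The 3 regions thus alternated between strains along the gene, at 6.86, 5.24 and 4.33 kb from the nearest TSS of Aire.

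The largest of them overlapped a B6-enriched H3K27ac region (chr10:78037968-78038659, score 15.5) by 406 bp. The deposited annotation placed that region in intron 7 of 11 of an Aire transcript but named it for Dnmt3l, whose start lay 3.97 kb away. Dnmt3l encodes a cofactor of the de novo DNA methyltransferases that is active in the germ line and in ES cells. Aire and Dnmt3l are neighbours, and the regions cannot be ascribed to either gene from these lists. The window at the centre of the shared stretch (mm10, plus strand, chr10:78038020-78038319, 53% GC, 2 CpG dinucleotides) is shown because only 2 of the 22 H3K4me3 regions of the set overlapped H3K27ac of the same strain, this one and one in Bach2.
Aire: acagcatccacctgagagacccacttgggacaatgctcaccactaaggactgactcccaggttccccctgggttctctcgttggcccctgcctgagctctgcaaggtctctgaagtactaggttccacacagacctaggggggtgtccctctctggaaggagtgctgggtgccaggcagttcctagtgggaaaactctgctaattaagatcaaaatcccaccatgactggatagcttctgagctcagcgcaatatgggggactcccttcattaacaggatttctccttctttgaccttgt

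Receptors and ligands of the T cell surface held H3K4me3 regions at 3 genes and an H3K27ac region at 1. Cd274 encodes PD-L1, the ligand through which cells restrain T cells that carry PD-1. Its B6-enriched H3K4me3 region (chr19:29381735-29382235, intron) held no NOD and 17 B6 tags, at least 8.72-fold higher in B6 (lower limit 6.35), at 14.5 kb from the nearest TSS. Lag3, an inhibitory receptor of activated T cells, had a NOD-enriched region instead. In chr6:124910330-124910964, in an intron 1.06 kb from the TSS, 32 NOD and 2 B6 tags were counted, a NOD to B6 ratio of 10.4 (2.65 to 89.6). Lag3 and Aire were the only members with a NOD-enriched H3K4me3 region reaching within 5 kb of a start site.

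Cd226, an activating receptor of T cells and natural killer cells, had a B6-enriched H3K4me3 region with no NOD and 30 B6 tags, at least 15.4-fold higher in B6 (lower limit 11.8, chr18:89271065-89271565). This region lay at the far end of the gene body, 65.3 kb from the nearest TSS and outside the curated transcripts. Cd101, an inhibitory receptor on myeloid and T cells, had a NOD-enriched H3K27ac region (chr3:101031729-101031962) with a score of 7.44 at 2.35 kb upstream. The score is a difference in H3K27ac signal between the strains, in units the authors do not state, and the deposited lists give no tags or errors for it. By score the Cd101 region ranked 5180 of 6126 in the NOD list.

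Among cytokines, Il2, the growth factor of T cells and a central candidate of the NOD Idd3 interval, had a B6-enriched H3K27ac region (chr3:37130907-37131169) 5.08 kb upstream. Its score of 8.14 ranked 4742 of 5525. Il21, which lies beside Il2 and supports B cell and T cell help, Il10, an anti-inflammatory cytokine, and Il18, a product of inflammasome activity, had no region. The same was true of the receptor genes Il2ra and Il7r and of the activation marker Cd69. The nearest listed H3K4me3 region to the 5' end of Il10 was NOD-enriched and lay 9.02 kb away, outside the rule, and the nearest to Il2 and Il21 were B6-enriched ones 204 and 310 kb away.

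Signalling inhibitors of T cells and cytokine receptors carried mostly weak regions. Ptpn22, a phosphatase that dampens T cell receptor signalling, had a B6-enriched H3K4me3 region (chr3:103902617-103903117, intron) with 5 NOD and 16 B6 tags, a ratio of 4.92 (1.72 to 17.2). It lay 42.4 kb from a TSS of Ptpn22 and 11.2 kb from that of Rsbn1. Ptpn2, a phosphatase that acts on JAK and STAT proteins, had regions of both strains. Its H3K4me3 region (chr18:67700563-67701063, intron) held no NOD and 12 B6 tags, at least 6.15-fold higher in B6 (lower limit 4.27) and the lowest count in the set. A NOD-enriched H3K27ac region (chr18:67725670-67726027) with a score of 42.2 lay 1.23 kb upstream of the TSS, over a SINE B2 repeat. At Ptpn2 the marks therefore differed in opposite directions at separate places, 1 within the gene and 1 before it.

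Tyk2, a Janus kinase of the interferon and interleukin-12 receptors, had a B6-enriched H3K27ac region (chr9:21130915-21131177) with a score of 8.71, 0.23 kb after the TSS in intron 1. Socs1, a feedback inhibitor of cytokine receptors, had a B6-enriched H3K27ac region (chr16:10785822-10786153) with a score of 19.6 at 0.45 kb upstream. The annotation placed this region in the promoter, and its score was the highest among the B6-enriched regions of the set, ranking 1735 of 5525. Tyk2, Socs1 and Stat4 were the genes of the set whose H3K27ac region was centred within 1 kb of a TSS by the deposited distance. Sh2b3 and Cblb, adaptors that restrain cytokine and T cell receptor signals, and Tnfaip3 (A20), which restrains NF-kappaB, had no region, nor did Gimap5, a survival factor of lymphocytes.

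The centre of the Socs1 region (mm10, plus strand, chr16:10785837-10786136) is shown because it is a promoter that differed between strains, and Socs1 is itself a target of STAT proteins. It had 67% GC and 16 CpG dinucleotides. Capitals mark a match to TTCNNNGAA, the GAS motif bound by STAT dimers, at chr16:10785981-10785989. A match is a description of letters and not a bound site, and the motif was found in 8.30% of 32851 promoter windows of 300 bp and in 9.79% of 11651 H3K27ac windows of that length.
Socs1: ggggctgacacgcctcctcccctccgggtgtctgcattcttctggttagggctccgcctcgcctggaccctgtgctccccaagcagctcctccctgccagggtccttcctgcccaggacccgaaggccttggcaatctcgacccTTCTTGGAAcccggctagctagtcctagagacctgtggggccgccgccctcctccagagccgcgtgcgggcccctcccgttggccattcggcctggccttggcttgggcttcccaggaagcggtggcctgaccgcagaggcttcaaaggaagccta

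Clec16a, which acts in mitophagy and neighbours Socs1, had an H3K27ac region of each strain in intron 15. The NOD-enriched region (chr16:10634203-10634436) had a score of 8.33 and the B6-enriched region (chr16:10634425-10634687) a score of 13.9, at 89.0 and 89.2 kb after the TSS. They abutted with 12 shared bases, so the opposite calls concerned flanks of the same site. Ranks were 4721 of 6126 in the NOD list and 2484 of 5525 in the B6 list, so neither was among the strong regions.

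The junction is shown with the shared bases in capitals (mm10, plus strand, chr16:10634280-10634579, 51.7% GC). The shared bases contained TTCCCAGAA, which also matches TTCNNNGAA, at chr16:10634425-10634433.
Clec16a: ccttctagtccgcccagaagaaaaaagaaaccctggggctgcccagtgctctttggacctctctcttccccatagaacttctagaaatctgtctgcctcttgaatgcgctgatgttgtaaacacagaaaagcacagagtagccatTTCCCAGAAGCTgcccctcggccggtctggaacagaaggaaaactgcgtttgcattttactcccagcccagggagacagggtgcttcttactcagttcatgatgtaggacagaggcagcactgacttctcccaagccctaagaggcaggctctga

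Bach2, a repressor that restrains effector differentiation of B and T cells, held the most regions of the set. Of the 9 NOD-enriched H3K4me3 regions of all members 5 lay in Bach2, and of the 13 B6-enriched ones 3 did, over a gene of 347697 bp on chromosome 4. The strongest NOD-enriched region (chr4:32471654-32472540, intron) held 69 NOD and 5 B6 tags, a NOD to B6 ratio of 8.97 (3.66 to 28.5). It ranked 1673 of 12077 and lay 54.5 kb from the nearest TSS of the gene. Next were 43 NOD tags and 1 B6 tag at chr4:32536928-32537557, a ratio of 28.0 (4.76 to 1130).

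The other NOD-enriched regions of Bach2 had fewer tags. At chr4:32499041-32499541, 35 NOD tags and no B6 tag were counted, at least 7.59-fold higher in NOD (lower limit 5.85). At chr4:32501491-32502128, over a coding exon, there were 33 NOD and 3 B6 tags, a ratio of 7.15 (2.24 to 36.4). At chr4:32425622-32426122, 20 NOD tags and 1 B6 tag gave a ratio of 13.0 (2.08 to 539). The intervals of these ratios overlapped, so the regions cannot be ordered by them.

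The B6-enriched regions of Bach2 were of similar depth. They held no NOD and 28 B6 tags at chr4:32538122-32538622, at least 14.4-fold higher in B6 (lower limit 10.9). A region with no NOD and 20 B6 tags lay at chr4:32252158-32252820, near the 5' end, at least 10.3-fold higher in B6 (lower limit 7.59). At chr4:32450182-32450836, 3 NOD and 18 B6 tags gave a ratio of 9.23 (2.69 to 48.9). The region with 28 B6 tags began 565 bp after the end of the NOD-enriched region with 43 tags, so both directions occurred side by side, as in Aire. Bach2 and Aire were the only members with H3K4me3 regions in both lists.

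H3K27ac differed at Bach2 in the same NOD-enriched place. The region chr4:32471493-32472364 had a score of 128.2, rank 350 of 6126, and overlapped the strongest NOD-enriched H3K4me3 region by 711 bp. It passed the slope threshold by which the HOMER pipeline separates super enhancers, clusters of high H3K27ac signal, from typical ones. The deposited annotation listed a SINE B4 repeat there. A weak NOD-enriched region (chr4:32196128-32196361, score 4.95) lay 42.2 kb before the 5' end of the gene, and a weak B6-enriched one (chr4:32246622-32246884, score 9.61) lay 8.34 kb into it. The deposited distances of these weak regions, 221 and 171 kb upstream, were taken from a later start of Bach2. A further NOD-enriched region within the gene (chr4:32499773-32500006, score 13.0) was named for the antisense gene Bach2os.

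The centre of the stretch under both NOD marks (mm10, plus strand, chr4:32471859-32472158) is shown since it is the other such overlap, and the only NOD one among the 22 regions. It had 47.3% GC and no CpG dinucleotide, and 49% of it was repeat-masked.
Bach2: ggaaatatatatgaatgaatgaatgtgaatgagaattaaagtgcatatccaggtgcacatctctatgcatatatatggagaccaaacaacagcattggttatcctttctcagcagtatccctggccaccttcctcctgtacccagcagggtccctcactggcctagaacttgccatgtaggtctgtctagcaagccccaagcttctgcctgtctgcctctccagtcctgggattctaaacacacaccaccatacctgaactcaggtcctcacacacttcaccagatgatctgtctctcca

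**Figure D3:**
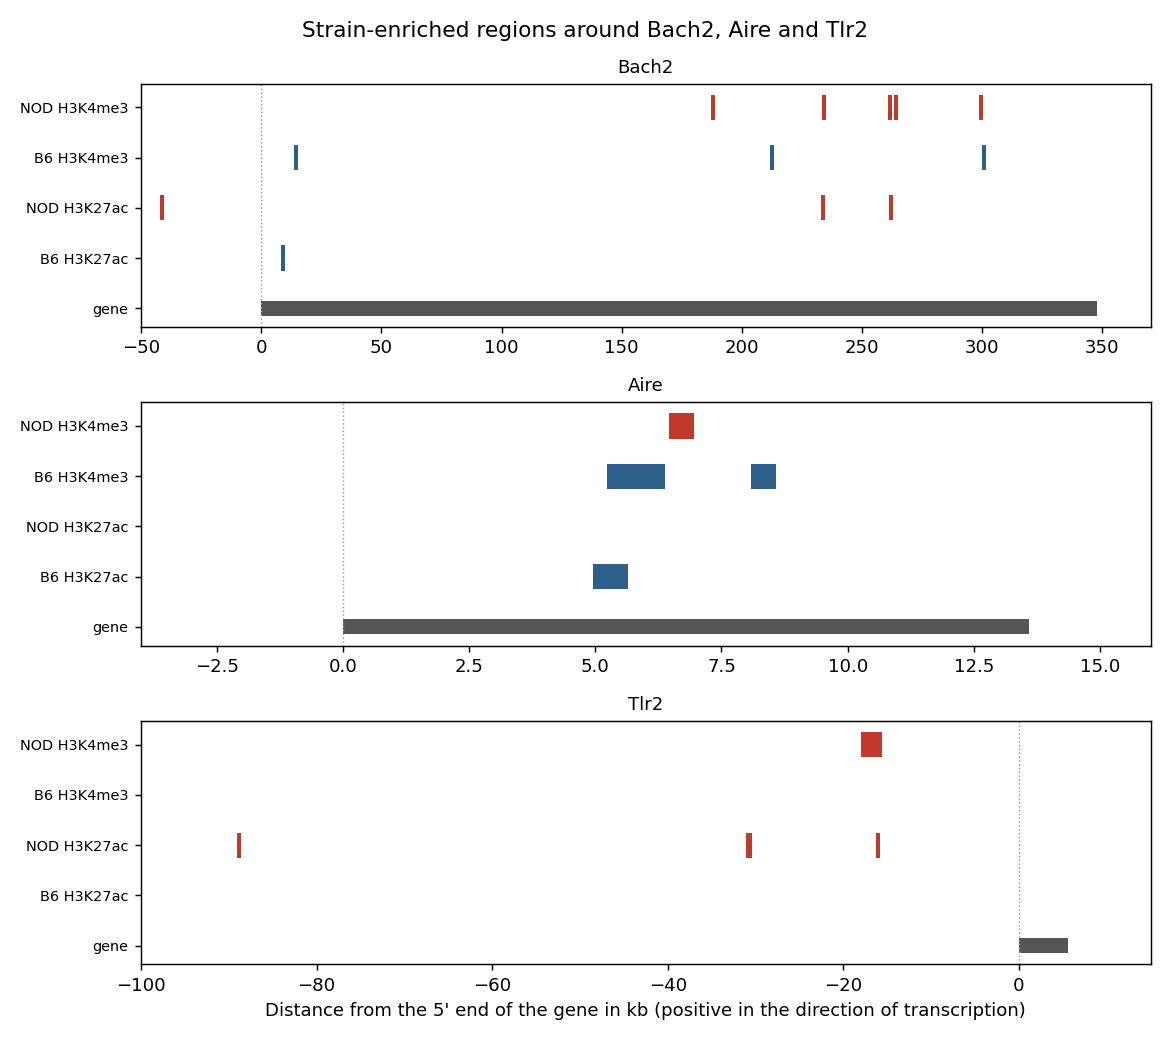
Positions of NOD-enriched (red) and B6-enriched (blue) H3K4me3 and H3K27ac regions along Bach2, Aire and Tlr2, with the gene as a grey bar, drawn by distance from the 5' end of the gene in kb (x axis) in the direction of transcription. Short regions are drawn at a minimum width. Regions of both strains lie within Bach2 and Aire, and the Tlr2 regions are all NOD-enriched and lie upstream.

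Ifih1 and Fcgr1 completed the candidate genes with a region. Ifih1 encodes MDA5, a cytosolic sensor of viral double-stranded RNA. Its B6-enriched H3K4me3 region (chr2:62597214-62597714) held no NOD and 17 B6 tags, at least 8.72-fold higher in B6 (lower limit 6.35). This region lay over a non-coding part of an exon near the end of the gene, 29.2 kb from a TSS of Ifih1 and 22.0 kb from that of Fap.

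Fcgr1, which encodes the high-affinity receptor for IgG, was named for a NOD-enriched H3K27ac region (chr3:96328115-96328348, score 21.4) 34.3 kb upstream, over a CpG island. The same place lay within a NOD-enriched H3K4me3 region (chr3:96327915-96328670) with 190 NOD and 18 B6 tags, 83.5 and 12.2 per 10000000 tags, a ratio of 6.86 (4.23 to 11.8). The nearest TSS to it was that of Gm24830, a small nuclear RNA gene, at 133 bp, and not that of Fcgr1. At 4.03 kb from that TSS a B6-enriched H3K4me3 region (chr3:96332202-96332702) held 1 NOD and 16 B6 tags, a ratio of 24.6 (3.82 to 1032). No listed region lay within Fcgr1 itself.

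The H3K27ac region named for Fcgr1 (mm10, plus strand, chr3:96328115-96328348) is shown whole, since its CpG content sets it apart from the other windows printed here. It had 67.5% GC, 30 CpG dinucleotides and an observed over expected CpG ratio of 1.23, and no base was repeat-masked.
Fcgr1: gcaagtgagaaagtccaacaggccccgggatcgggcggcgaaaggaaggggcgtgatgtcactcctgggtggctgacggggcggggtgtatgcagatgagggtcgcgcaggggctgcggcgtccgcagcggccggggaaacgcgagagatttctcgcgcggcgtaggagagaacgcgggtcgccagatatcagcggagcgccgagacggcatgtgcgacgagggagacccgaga

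Of the 5 islet antigens, which are targets of autoantibodies or T cells in diabetes, 3 had a region. Gad1 and Gad2 encode GAD67 and GAD65, the enzymes that make GABA. In Gad1, a NOD-enriched H3K4me3 region (chr2:70568199-70568699, intron, 5.65 kb from the nearest TSS) held 29 NOD and 2 B6 tags, a ratio of 9.43 (2.38 to 81.5). A B6-enriched H3K27ac region (chr2:70558817-70559154, score 11.1) lay 3.14 kb upstream of Gad1. In Gad2, a B6-enriched H3K4me3 region (chr2:22661225-22662084, intron, 39.3 kb from the nearest TSS) held 8 NOD and 26 B6 tags, a ratio of 5.0 (2.20 to 12.8). A B6-enriched H3K27ac region (chr2:22619610-22619872, score 9.50) lay 2.59 kb upstream of Gad2. Gad2 was thus enriched in B6 for both marks at separate places, whereas Gad1 differed in opposite directions.

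Ins1, an insulin gene of the mouse, was named for a NOD-enriched H3K27ac region (chr19:51739931-51742122) with a score of 144.8, rank 300 of 6126, over a LINE L1 repeat. It passed the super enhancer threshold but lay 523 kb upstream, and nothing but the deposited name tied it to Ins1. A NOD-enriched H3K4me3 region (chr19:51738483-51739127) close by held 35 NOD and 5 B6 tags, a ratio of 4.55 (1.78 to 14.9). Ins2, the other insulin gene, and Slc30a8, the zinc transporter of insulin granules, had no region. The nearest H3K4me3 regions to the 5' end of Ins2 lay at 19.8 kb in the NOD list and 21.4 kb in the B6 list.

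By the assignment rule, innate sensors had most of their regions in the NOD H3K27ac list. There, 4 of the 12 genes (33.3%) were named, beside 18.9% of all genes, and a single gene was found in each of the other lists. The named genes were the receptors Tlr2 and Tlr4, the inflammasome protease Casp1 and the interferon regulatory factor Irf7. None of these regions lay within 5 kb of a start site of its gene. Taken by position, none of these 4 genes had a NOD-enriched H3K27ac region. By position Stat4 and Myd88 had one, and Stat4 and Nlrp3 had a B6-enriched one. A difference of a few genes in a group of 12 is not a result about the group.

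**Figure D4:**
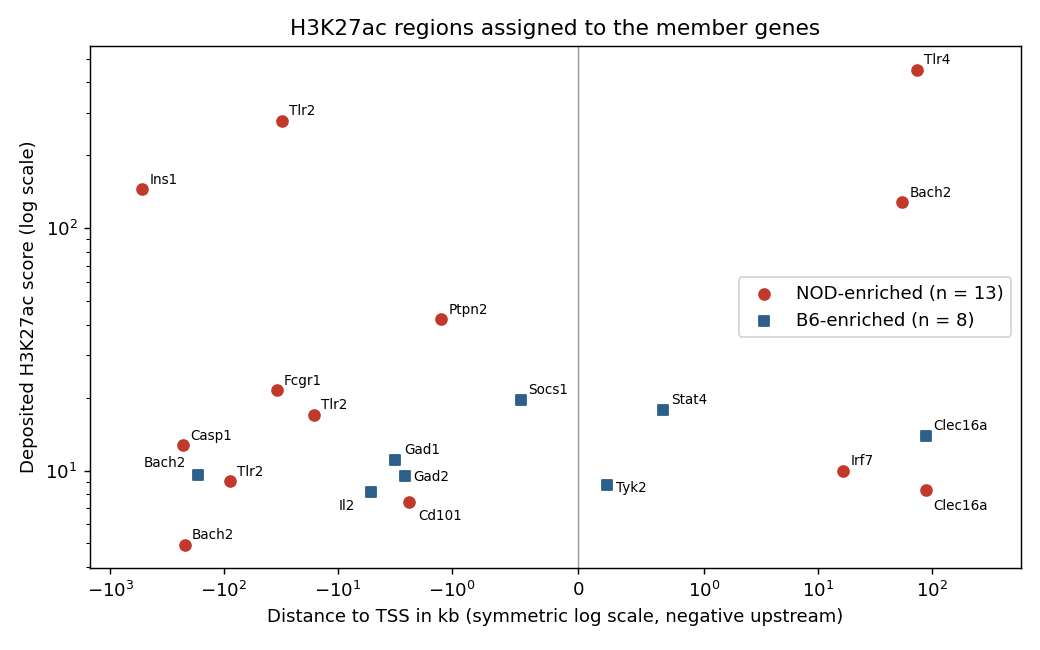
Deposited H3K27ac score (y axis, log scale) against distance to the TSS of the named gene in kb (x axis, symmetric log scale, negative upstream) for the 13 NOD-enriched (circles) and 8 B6-enriched (squares) regions named for a gene of the set. The highest scores, 128.2 to 450.8, are NOD-enriched and lie at least 31.0 kb from the TSS, and no B6-enriched score exceeds 19.6.

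Tlr4, the receptor for bacterial lipopolysaccharide, was named for the highest score of the set. The NOD-enriched region chr4:66894834-66908844 spanned 14010 bp with a score of 450.8, rank 29 of 6126, and lay 74.3 kb after the TSS and outside the gene. Within it lay 2 NOD-enriched H3K4me3 regions (chr4:66901373-66901873 and chr4:66902492-66903250). Each held 34 NOD tags and no B6 tag, at least 7.37-fold higher in NOD (lower limit 5.67). The nearest listed B6-enriched regions to the 5' end of Tlr4 lay 1081 kb away for H3K4me3 and 1986 kb away for H3K27ac.

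Tlr2, the receptor for bacterial lipoproteins, was named for 3 NOD-enriched H3K27ac regions and no B6-enriched one. The strongest (chr3:83872239-83872939) had a score of 277.3, rank 97 of 6126, and lay 31.0 kb upstream over an internal part of an ERVK element. The nearest to the gene (chr3:83857782-83858076) had a score of 17.0 and lay 16.3 kb upstream. It was contained in a NOD-enriched H3K4me3 region (chr3:83857439-83859822) with 263 NOD and 18 B6 tags, 115.6 and 12.2 per 10000000 tags. Their ratio was 9.50 (5.89 to 16.3) and the region ranked 225 of 12077, but at this distance it fell outside the rule for the set. The most distant (chr3:83930633-83930866, score 9.02) lay 89.1 kb upstream in an intron of a neighbouring gene.

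The H3K27ac region of Tlr2 that lay under H3K4me3 (mm10, plus strand, chr3:83857782-83858076) is shown whole as the place nearest to the gene where both marks were enriched in NOD. It had 52.2% GC and 6 CpG dinucleotides.
Tlr2: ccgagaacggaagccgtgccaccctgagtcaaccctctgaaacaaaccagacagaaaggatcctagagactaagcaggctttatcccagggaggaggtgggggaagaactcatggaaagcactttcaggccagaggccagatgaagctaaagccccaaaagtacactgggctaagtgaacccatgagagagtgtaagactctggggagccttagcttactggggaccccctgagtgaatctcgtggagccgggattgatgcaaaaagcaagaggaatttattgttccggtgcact

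Casp1, which cleaves interleukin-1 and interleukin-18 precursors, was named for a NOD-enriched H3K27ac region (chr9:5067349-5067582, score 12.7) 231 kb upstream. Irf7, a driver of type I interferon expression, was named for a NOD-enriched region (chr7:141249685-141249918, score 10) 16.6 kb downstream of its TSS, which was wholly repeat-masked (100%, an MTB element of the MaLR family). Neither region lay in or beside the gene.

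Nlrp3, the sensor of an inflammasome, had a B6-enriched H3K4me3 region (chr11:59555672-59556172, intron, 12.5 kb from the nearest TSS) with 8 NOD and 31 B6 tags, a ratio of 5.96 (2.68 to 15). A B6-enriched H3K27ac region further along the gene (chr11:59560244-59560506, score 9.73) was named for the olfactory receptor gene Olfr222. That region ranked 3884 of 5525 and lay over an ERVK repeat, with 79.5% of it repeat-masked. By position, Nlrp3 was therefore listed as B6-enriched for both marks, with a weak H3K27ac region.

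Stat4, which carries interleukin-12 signals in T cells and natural killer cells, had regions of both strains. Its NOD-enriched H3K4me3 region (chr1:52046643-52047279, intron) held 51 NOD and 8 B6 tags, a ratio of 4.14 (1.95 to 10.1), and 80.4% of it was repeat-masked. A B6-enriched H3K27ac region (chr1:52008653-52009179) with a score of 17.8 lay 0.68 kb after a TSS in intron 1. So the difference near the TSS favoured B6 and the H3K4me3 difference further inside favoured NOD.

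Myd88, the adaptor shared by most Toll-like receptors, had no region by the rule, although a NOD-enriched H3K27ac region (chr9:119341415-119341648, score 6.42) in exon 1 of the neighbouring gene Acaa1a lay 1.4 kb from its 5' end. Tlr9, a sensor of unmethylated DNA, also had none, and its nearest NOD-enriched H3K4me3 region lay 9.84 kb from the 5' end. For Irf1, a transcription factor of interferon responses, that distance was 5.70 kb. Pycard, the adaptor of inflammasomes, had its nearest region, of B6-enriched H3K27ac, 5.43 kb away. Tlr3, a sensor of double-stranded RNA, and Irf4, a lymphocyte transcription factor, completed the genes without a region.

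Taking H3K27ac by position in place of the deposited name gave 6 members in the NOD list, beside 16.5% of all genes, and 10 in the B6 list, beside 14.5%. The order of the strains was thus reversed between the ways of assignment. With the name, regions far from the gene entered, since 6 of the 13 NOD-enriched and 6 of the 8 B6-enriched regions lay within 50 kb of the TSS. Within 5 kb of the TSS lay 2 NOD-enriched and 5 B6-enriched regions. By the super enhancer threshold 4 of the 42 members (Bach2, Ins1, Tlr2 and Tlr4) were named in the NOD list, beside 1.76% of all genes, and none in the B6 list, beside 1.45%. Of these 4, Bach2 alone held the region within its gene body. The regions named for Tlr2, Tlr4 and Ins1 lay 31.0, 74.3 and 523 kb from the TSS. These few names are therefore not a result about the set.

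The H3K27ac scores of the set ran from 4.95 to 450.8 with a median of 17.0 in NOD, beside a median of 12.95 over that list, and from 8.14 to 19.6 with a median of 10.4 in B6, beside 12.8. The repeat-masked share had a median of 46.9% in the NOD-enriched H3K27ac regions of the set, beside 22.2% over the list, and of 6.27% in the B6-enriched ones, beside 17.1%. For H3K4me3 it was 12.0% beside 17.0% in NOD and 21.2% beside 16.2% in B6. Among regions assigned by name, the NOD-enriched H3K27ac ones therefore lay more in repeats than the B6-enriched ones. This was not tested with 13 and 8 regions. By position, those named for Fcgr1, Ins1, Irf7, Tlr2, Tlr4 and Casp1 and the upstream one of Bach2 would leave. NOD-enriched ones in Bach2 (67.9% masked) and Stat4 (5.81%) and beside Myd88 (0%) would enter. So would B6-enriched ones in Nlrp3 (79.5%) and Aire (28.8%). The medians were not taken by position, so the contrast is given for the naming rule only. The part of repeats in the scores was not tested.

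By the assignment rule, 2 of the 22 H3K4me3 regions of the set overlapped H3K27ac of the same strain. The H3K27ac regions named for Fcgr1, Tlr2 and Tlr4 also overlapped NOD-enriched H3K4me3 regions, which fell outside this rule and are not counted here. Of the 9 NOD-enriched H3K4me3 regions of the set, 1 (Bach2) overlapped an H3K27ac region of the same strain, beside 5.82% of all 12077. Of the 13 B6-enriched ones, 1 (Aire) did, beside 3.62% of all 7587. Over all 42 genes the median distance from the 5' end to the nearest NOD-enriched H3K4me3 region was 84.2 kb, beside 56.6 kb over all genes, and to the nearest B6-enriched one 72.8 kb, beside 92.6 kb. For H3K27ac the distances were 105 kb beside 95.8 kb in NOD and 77.0 kb beside 110 kb in B6. The median for NOD-enriched H3K27ac was close to that of all genes, and no test was made for any of these medians. Single members ranged widely, from 1.04 to 1036 kb for NOD-enriched and from 0.216 to 2531 kb for B6-enriched H3K27ac. The medians are therefore not a result about the set.

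The 6 printed windows were also searched on both strands for GAAANNGAA, the core of the interferon-stimulated response element, and for ATGCAAAT, the octamer bound by POU factors, and neither was found. These letters occurred in 8.56% and 1.74% of promoter windows and in 9.54% and 2.40% of H3K27ac windows. TTCNNNGAA reads the same on both strands, and it can share its last GAA with the interferon motif. It was found in the Socs1 and Clec16a windows alone among the 6, which says nothing of binding in these cells.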

How the data were processed

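ChIP-Seq of H3K4me3 and H3K27ac in NOD and B6 ES cells gave 4 libraries, 1 per strain and mark. The study's methods name bowtie2, of a version not given in the sources used, for mapping to mm10, and HOMER v4.8 for region calling. The submitters' processing notes also name mm9, CASAVA 1.8.2 and STAR 2.2.0c, but the annotation command in the files names mm10. TSS distances in the H3K27ac files were within 1 kb of those to RefSeq GRCm38.p6 starts for 98.3% of 6076 NOD and 98.4% of 5482 B6 regions. Reads of both strains were mapped to a B6 reference, and the part of strain variants in the results was not tested.

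Per the file headers, H3K4me3 regions were called by the authors in each strain with the other strain as the control (peak size 500 bp, tag threshold 8, at least 4-fold, Poisson p of 1.00e-04). The deposited counts of tags are whole numbers for B6 and scaled to the B6 library for NOD, and whole NOD tags were recovered from the library totals (farthest value 0.0769 tags from a whole number). Deposited control values standing for no tag were taken as 0. The deposited normalised signal is tags per 10000000, and was used for ranks. The deposited fold was used only for the alternative of at least 8-fold, and the deposited p-values were not used. The deposited H3K27ac score is from the authors' HOMER super enhancer pipeline and is a difference between strains of unstated scale. It was below 0 in 18 NOD and 8 B6 regions, none of them named for a gene of the set. Super enhancers were regions with a positive score and a slope value, the next deposited column, of at least 1, or among the 5 highest scores, in which that column holds another quantity. This gave 500 regions in NOD and 390 in B6.

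Genes were those of RefSeq GRCm38.p6, and all 42 symbols matched. The overlap needed was 1 bp. Ratios have exact conditional binomial 95% intervals, and the floor was 3 tags per library. No test between strains was possible with 1 library each, and no p-value is given. Windows of sequence came from the RefSeq GRCm38.p6 genome (mm10) and promoters for motif shares from its promoter table. Every gene of the set is named with all its H3K4me3 regions and at least its highest H3K27ac region per list. From wider pathway lists, genes are named with an H3K4me3 region within 1 kb of a TSS and at least 50 tags, or an H3K27ac score of at least 50 within 50 kb. Promoter windows were to be printed for genes with H3K4me3 over a TSS, but none qualified, so the windows, and the nearby regions outside the assignment rule, were chosen after their values were seen. The genes, lists and thresholds were chosen with earlier results of these data known. Python 3.11.15, numpy 2.4.6, pandas 2.3.3, scipy 1.17.1 and matplotlib 3.10.9 were used, and assignment and interval functions were tested on simulated data.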

Additional observations from a re-analysis of the deposited data

How the results depend on the processing

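No paired analysis was possible because each strain and mark had 1 library, and for the same reason no library could be left out. NOD-enriched H3K4me3 (5 genes) was found at 2 genes within 5 kb of a TSS alone, 1 within 1 kb, 19 with the gene body or 50 kb, and 0 with at least 50 tags on the B6 library scale. B6-enriched H3K4me3 (10 genes) was found at 2, 1, 17 and 1 genes under these settings, and at 6 with at least 8-fold. NOD-enriched H3K27ac (10 genes) was found at 6 genes by position, 5 by name within 50 kb, 6 with a score of at least 20 and 4 as super enhancers. B6-enriched H3K27ac (8 genes) was found at 0 genes with that score and 0 as super enhancers. Same-strain H3K27ac lay over 2 H3K4me3 regions of the set and within 5 kb of 6. The remaining settings moved the counts by no more than 1.5 times. Scaling by tags outside the listed regions (factor 1.52 in place of 1.54) kept all 22 tag ratios within their counting intervals, and raw tags kept 15. The other 7 NOD to B6 ratios, 6 of them upper bounds against the floor, were with raw tags 0.25 for Ptpn2, 0.176 for Ifih1 and Cd274, 0.10 for Cd226, 0.107 and 0.15 for Bach2 and 0.310 for Aire. All stayed below 1. H3K4me3 differences smaller than 4-fold were not listed and could not be examined.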

Other observations

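Wider lists of related genes, outside the 42, were counted by the same rules. Of 38 further diabetes genes, 5 had a NOD-enriched and 9 a B6-enriched H3K4me3 region (13.2% and 23.7%, beside 24.4% and 16.4% of all genes), and 6 and 4 an H3K27ac region (15.8% and 10.5%, beside 18.9% and 17.2%). Of 55 further innate genes, 8 and 8 had an H3K4me3 region (14.5% each) and 10 and 9 an H3K27ac region (18.2% and 16.4%), the latter close to the shares of all genes. Of 13 further islet genes, 2 and 1 had an H3K4me3 region (15.4% and 7.69%) and 2 and 3 an H3K27ac region (15.4% and 23.1%), to be read beside the same shares of all genes.

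Some of these carried H3K4me3 differences centred within 1 kb of a start site. Ikzf1 (Ikaros), a lymphoid transcription factor, had 97 NOD and 13 B6 tags in a NOD-enriched region 0.61 kb from a TSS, a ratio of 4.85 (95% interval 2.71 to 9.44). Its relative Ikzf4 (Eos), a factor of regulatory T cells, had 29 NOD and 81 B6 tags 0.065 kb from a TSS, a B6 to NOD ratio of 4.30 (2.78 to 6.81). The Janus kinase Jak3 had 17 NOD and 51 B6 tags 0.425 kb from a TSS, a ratio of 4.61 (2.62 to 8.52). Nod1, a sensor of bacterial peptidoglycan, had 21 NOD and 55 B6 tags, a ratio of 4.03 (2.40 to 7.01). It also had a B6-enriched H3K27ac region with a score of 222.4, rank 44 of 5525, in intron 1 over a LINE L1 repeat. So both marks favoured B6 at Nod1, at places 18.8 and 0.37 kb after the start.

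High H3K27ac scores within 50 kb of the TSS of a further named gene occurred in both lists. In B6, Zbp1, a sensor of Z-form nucleic acid, was named for a score of 247.3 (rank 37) 19.8 kb upstream. Rela, a subunit of NF-kappaB, was named for 96.2 at 7.28 kb, and Nlrc4, an inflammasome component, for 64.0 at 11.5 kb, both over repeats. The co-stimulatory ligand Cd80 had 86.8 at 0.16 kb from its TSS. In NOD, the zinc transporter gene Slc30a5 was named for 178.9 at 8.62 kb and Casp8 for 160.0 at 29.9 kb. Jak2 was named for 67.3 at 4.97 kb and the interferon gamma receptor gene Ifngr2 for 50.2 at 18.1 kb. The annotation listed a repeat at each of these NOD-enriched regions. The scores have no replicate and were not compared between lists.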
